A study of Mus musculus with 21 samples.

Results

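The lysosomal hydrolases and membrane proteins examined here were a set of 8 named mouse genes, of which 6 were measured in the cortex expression table of 5544 genes. These were the proteases Ctsb, Ctsd and Ctsl, the membrane glycoproteins Lamp1 and Lamp2, and the sphingolipid activator precursor Psap. Their rows were found by matching the GENCODE symbol of each Ensembl identifier, a lookup that used no expression value. The set itself was chosen with earlier results of these data known. Hexa and Grn were not analysed here. RNA-seq was performed on cortex of male wild-type C57BL/6 mice (C57Bl/6J in the study's methods) aged 12 weeks. Cortex was taken at 24 h after the final impact or sham session, giving 10 sham and 11 high-frequency head impact (HF-HI) libraries. HF-HI mice received repeated daily closed-head impacts under isoflurane, and sham mice had the same handling and anesthesia without impact. Each library was prepared from cortical homogenate, so every value is an average over all cell types of the tissue. The comparison of HF-HI with sham addresses whether transcripts for lysosomal degradation differed in the cortex 1 day after the impacts.

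Lysosomes are acidic organelles in which proteins, lipids and glycans delivered by endocytosis and autophagy are broken down. Soluble hydrolases are made in the endoplasmic reticulum, tagged with mannose 6-phosphate or bound by sortilin, and delivered through endosomes, while the vacuolar proton pump (V-ATPase) keeps the lumen acid. In brain, long-lived neurons rely on this route for protein turnover, microglia and astrocytes carry abundant cathepsins, and inherited loss of several of these genes causes neuronal storage disease.

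Many lysosomal genes carry the palindromic core CACGTG near their start, a sequence bound by basic helix-loop-helix factors including TFEB. To show this feature for the genes measured, promoter windows of 250 bases ending at the RefSeq transcript start (GRCm38.p6) are printed 5′ to 3′ on the gene's strand, with each CACGTG in capitals. This motif was searched after the expression values were seen, and because it is a palindrome both strands give the same sites. Windows were found for 5 of the 6 members. They are printed for both Lamp genes, which encode the most abundant membrane proteins of the lysosome, and for Ctsd and Psap, the members with the most and the fewest sites among the hydrolases and their cofactors.
Lamp1 promoter, chr8:13158911-13159160, plus strand: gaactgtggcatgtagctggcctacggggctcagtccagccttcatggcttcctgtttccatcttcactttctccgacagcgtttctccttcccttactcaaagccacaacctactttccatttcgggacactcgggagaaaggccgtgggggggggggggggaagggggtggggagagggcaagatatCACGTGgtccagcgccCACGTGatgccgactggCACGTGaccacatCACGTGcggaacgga
Lamp2 promoter, chrX:38456461-38456710, minus strand: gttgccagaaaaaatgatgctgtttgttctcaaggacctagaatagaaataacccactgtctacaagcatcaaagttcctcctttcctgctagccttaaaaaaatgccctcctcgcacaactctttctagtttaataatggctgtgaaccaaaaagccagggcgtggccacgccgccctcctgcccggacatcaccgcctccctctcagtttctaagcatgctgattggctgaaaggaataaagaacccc
Ctsd promoter, chr7:142387828-142388077, minus strand: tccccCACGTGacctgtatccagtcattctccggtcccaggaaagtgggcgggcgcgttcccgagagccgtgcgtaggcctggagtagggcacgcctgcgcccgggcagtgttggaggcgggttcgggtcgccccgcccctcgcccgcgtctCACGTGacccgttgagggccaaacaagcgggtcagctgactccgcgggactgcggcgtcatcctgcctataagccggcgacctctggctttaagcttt
Psap promoter, chr10:60277378-60277627, plus strand: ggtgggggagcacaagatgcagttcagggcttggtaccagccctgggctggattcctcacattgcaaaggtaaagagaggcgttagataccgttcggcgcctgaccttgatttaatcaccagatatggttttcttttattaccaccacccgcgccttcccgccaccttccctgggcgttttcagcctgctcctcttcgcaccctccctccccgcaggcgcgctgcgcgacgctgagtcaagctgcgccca

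The Lamp1 window held 4 CACGTG sites, whose first bases lay 61, 45, 28 and 15 bases before the start. Among 32851 RefSeq promoter windows of the same length, 6.02% held at least 1 site, 0.429% held at least 2, and 0.0213% (7 windows) held at least 4. The Ctsd window held 2 sites, at 245 and 98 bases, and the nearer one was part of the longer palindrome TCACGTGA, found in 0.785% of all windows. The Ctsl window held 1 site, at 236 bases before the start. No CACGTG was present in these windows of Lamp2 or in either of 2 Psap windows, the second lying at chr10:60284211-60284460. The Ctsl window and the second Psap window lay wholly, and the Ctsd window mostly, inside the span that GENCODE gives each gene. A match describes these letters and is not evidence of binding.

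Cathepsin B was the member with the largest difference. Ctsb, a cysteine protease of lysosomes, lies at chr14:63122462-63145923 on the plus strand (ENSMUSG00000021939, GRCm38). Its variance-stabilized value, a log2 scale set by the authors on which 1 unit is close to a doubling for well-expressed genes, ranged from 11.39 to 11.96 across sham libraries with a median of 11.62. HF-HI libraries spanned 12.06 to 12.30 around a median of 12.14, and all 11 HF-HI libraries lay above all 10 sham libraries. The sham values themselves fell apart, with replicates 8, 9 and 10 at 11.96, 11.95 and 11.93 and the other sham libraries between 11.39 and 11.72. The sham mean was 11.67 ± 0.21 (SD, n = 10) and the HF-HI mean 12.17 ± 0.078 (SD, n = 11). Ctsb rose by 0.50 on the log2 scale (SE 0.064, 95% interval 0.37 to 0.63), or 1.41-fold, with a limma adjusted p of 5.91e-07. Non-overlapping groups with the higher values in HF-HI were found for 8.71% of all genes tested, and Ctsb was the only member of 6 with that pattern. In the order of differences from the highest, Ctsb stood at rank 321 of 5544.

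**Figure D1:**
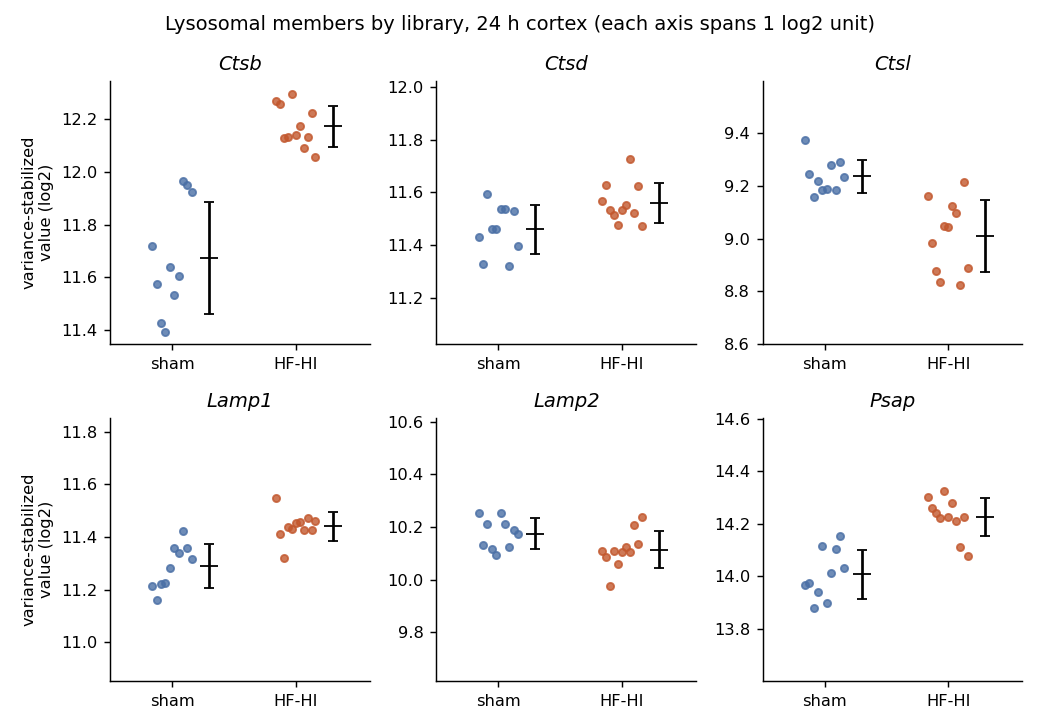
Variance-stabilized log2 value of each member (y axis, every panel spanning 1 log2 unit) in the 10 sham and 11 HF-HI libraries (points), with bars for the mean ± SD of each group. Ctsb separates the groups completely, Lamp1, Psap and Ctsl separate 9 of 11 HF-HI libraries from every sham library, and Ctsd and Lamp2 overlap widely.

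Cathepsin L moved in the opposite direction from cathepsin B, although both are cysteine proteases of the papain family. Ctsl (ENSMUSG00000021477, chr13:64359337-64370890, minus strand) had a sham median of 9.23 (lowest 9.16, highest 9.37) and an HF-HI median of 9.04 (lowest 8.82, highest 9.22). Every HF-HI library was below the sham median and 9 of 11 were below every sham library, while 6 of 10 sham libraries were above every HF-HI library. Ctsl fell by 0.23 on the log2 scale (SE 0.047, 95% interval -0.32 to -0.13), or 0.854-fold, with a limma adjusted p of 1.95e-04. The spread was wider after HF-HI (SD 0.14, n = 11) than in sham (SD 0.064, n = 10). Leaving out single libraries kept the difference between -0.25 and -0.21.

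Cathepsin D, the major aspartic protease of lysosomes, differed little. Ctsd (ENSMUSG00000007891, chr7:142375911-142388038, minus strand) lay between 11.32 and 11.59 in sham libraries, median 11.46, and between 11.47 and 11.73 in HF-HI libraries, median 11.53. Although all 11 HF-HI libraries were above the sham median, only 3 were above every sham library. Its difference was 0.099 (SE 0.037, 95% interval 0.022 to 0.18), or 1.07-fold, with a limma adjusted p of 0.0229. This call was lost when libraries were centred on their medians (0.047, adjusted p 0.286) and when quantile normalization was used (0.063, adjusted p 0.146). After removal of the trend of each library with gene GC content the sign turned, with a difference of -0.075 and a limma adjusted p of 0.19.

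Of the membrane proteins, Lamp1 was higher after HF-HI and Lamp2 was not called. LAMP1 and LAMP2 are heavily glycosylated proteins that line the inner face of the lysosomal membrane, and the LAMP2A isoform serves as the receptor of chaperone-mediated autophagy. Lamp1 (ENSMUSG00000031447, chr8:13159161-13175338, plus strand), the gene with 4 CACGTG sites above, ranged from 11.16 to 11.42 in sham (median 11.30) and from 11.32 to 11.55 in HF-HI (median 11.44). All but 2 of the 11 HF-HI libraries exceeded every sham library. Lamp1 rose by 0.15 (SE 0.033, 95% interval 0.083 to 0.22), or 1.11-fold, with a limma adjusted p of 3.39e-04, and with the GC trend removed the difference was 0.088 (adjusted p 0.022). Lamp2 (ENSMUSG00000016534, chrX:38401357-38456454, minus strand) ranged from 10.09 to 10.25 in sham (median 10.18) and from 9.98 to 10.24 in HF-HI (median 10.11). The groups overlapped over most of their range, with 9 of 11 HF-HI libraries below the sham median. The Lamp2 difference was -0.061 (SE 0.031, 95% interval -0.13 to 0.0031), or 0.959-fold, with a limma adjusted p of 0.0858. Centring libraries on their medians gave -0.11 (adjusted p 0.00551), whereas removing the GC trend gave 0.072 (adjusted p 0.0209), so both the call and the sign of Lamp2 depended on the scaling. Gene values sum over isoforms, so LAMP2A was not measured on its own.

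Psap, the precursor of the saposins that present sphingolipids to their hydrolases, was the most abundant member. Psap (ENSMUSG00000004207, chr10:60277627-60302597, plus strand) had sham values of 13.88 to 14.15 around a median of 13.99, while HF-HI values spanned 14.08 to 14.33 around a median of 14.23. All but 2 of the 11 HF-HI libraries were above every sham library. Those 2 were HF-HI replicates 9 and 11, at 14.11 and 14.08, which were also the HF-HI libraries with the highest Lamp2 values, 10.21 and 10.24. Psap rose by 0.22 (SE 0.037, 95% interval 0.14 to 0.29), or 1.16-fold, with a limma adjusted p of 2.19e-05. The difference was smaller with quantile normalization (0.10, adjusted p 0.0351) and with the GC trend removed (0.065, adjusted p 0.0287).

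By the limma test, 4 of the 6 members were higher, 1 was lower and 1 was not called, with a median difference of 0.12. Across all 5544 genes 66.3% were called, 32.6% higher and 33.6% lower, and the median difference was -0.0086. In numbers this was 1810 genes higher and 1864 lower, or 1448 and 2376 when libraries were centred on their medians. With the GC trend removed the members again gave 4 higher and 1 lower, but not with the same genes, since Lamp2 was then called higher and Ctsd was not called.

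**Figure D2:**
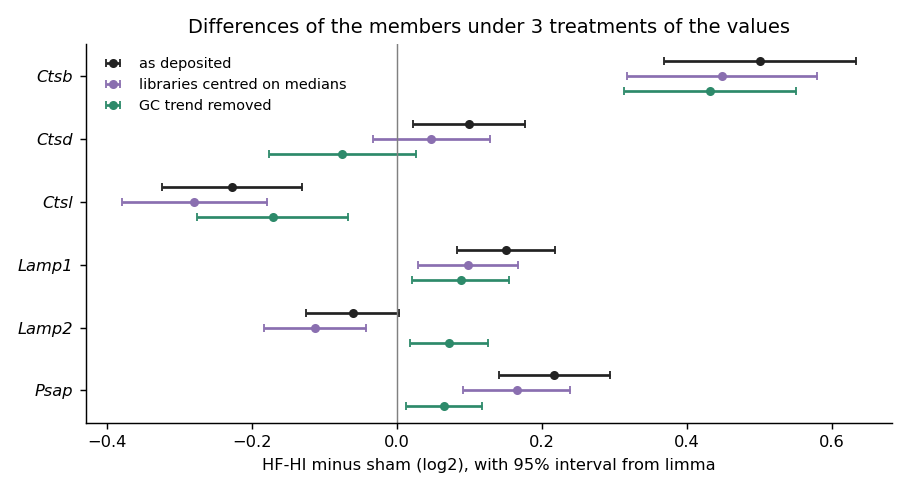
HF-HI minus sham difference of each member (x axis, log2) with its 95% limma interval, from the values as deposited (black), after centring each library on its median (purple) and after removing the trend of each library with gene GC content (green). Ctsb, Ctsl, Lamp1 and Psap keep their sign with intervals that leave out 0 in all 3, whereas Ctsd and Lamp2 change sign.

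The libraries differed between groups in ways that bear on these values. The slope of a library's values on gene GC content, per 10% GC, ran from -0.23 to 0.0058 in sham (median -0.11) and from -0.039 to 0.16 in HF-HI (median 0.11). Relative depth was estimated from the spacing of the linear values, with sham replicate 2 as 1. It ran from 0.580 to 1.26 in sham and from 0.548 to 1.64 in HF-HI. In several deeper HF-HI libraries the best spacing fitted little better than the next. The strength of fit was 0.56 against 0.54 in replicate 1 and 0.51 against 0.45 in replicate 6. Those depths, and the depth covariate made from them, are therefore uncertain. HF-HI replicates 9 and 11 were the shallowest of their group and had its lowest GC slopes, and replicate 9 stood apart from the other HF-HI libraries on their first principal component. Without replicate 9 the member differences were 0.50 for Ctsb, 0.10 for Ctsd, -0.21 for Ctsl, 0.15 for Lamp1 and 0.23 for Psap, all still called. Lamp2 was called lower without replicate 9 (-0.070, adjusted p 0.0462) and without replicate 11 (-0.073, adjusted p 0.0348). Exonic GC content was 39.4% for Lamp2, 44.2% for Ctsl, 50.4% for Lamp1, 50.7% for Ctsb, 54.7% for Psap and 55.6% for Ctsd. The part of the GC slope in the member differences was not tested beyond the values with the trend removed.

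Several members share exon bases with a neighbouring gene in the annotation, and whether counting used strand is not given in the sources used here. Ctsb shares 774 exon bases with Fdft1 on the opposite strand, and Fdft1 differed by -0.11 (limma adjusted p 0.0162), opposite in sign to Ctsb. Ctsd shares 808 bases with the same-strand gene Gm49369, Lamp1 shares 249 with Grtp1 on the opposite strand, and Ctsl shares 1742 with the antisense gene Gm47123 and 395 with the pseudogene Gm49230. Reads over the bases shared with the same-strand genes Gm49369 and Gm49230 cannot be assigned to one gene with certainty. For the opposite-strand genes this holds only if counting ignored strand.

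Comparing members by level requires a correction for length, and the log2 value less the log2 of exonic kilobases (the union of annotated exons) was used. On this scale the order in sham was Psap (12.55), Ctsd (10.23), Lamp1 (9.87), Ctsb (9.08), Lamp2 (6.92) and Ctsl (6.54). The same order held in HF-HI, with Psap at 12.77, Ctsd at 10.33, Lamp1 at 10.02, Ctsb at 9.58, Lamp2 at 6.86 and Ctsl at 6.31. In each group the library ranges of neighbouring members in this order did not overlap, the closest being Ctsd and Lamp1 in sham. Lamp2, Ctsl and Ctsb have 9552, 6489 and 6051 exonic bases in the union, more than any single transcript need contain, which lowers their per-length levels.

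Each pair of related members, whose differences had opposite signs on the deposited values, was compared within libraries, so that a factor common to both genes cancels. For the Lamp pair the sign of Lamp2 depended on the scaling, and Lamp2 was not called on the deposited values. The Ctsb value minus the Ctsl value ranged from 2.17 to 2.78 in sham and from 2.996 to 3.31 in HF-HI, without overlap. The means were 2.44 ± 0.20 (SD, n = 10) and 3.16 ± 0.12 (SD, n = 11), and this within-library difference rose by 0.73 (two-sided permutation test, p = 2e-05, the smallest that 100000 resamples can give; adjusted over 2 pairs, 4e-05). It remained at 0.60 with the GC trend removed (permutation p = 2e-05). Lamp1 minus Lamp2 averaged 1.12 ± 0.098 (SD, n = 10) for sham and 1.33 ± 0.056 (SD, n = 11) for HF-HI, a rise of 0.21 (permutation p = 4e-05; adjusted over 2 pairs, 4e-05). With the GC trend removed the Lamp pair differed between groups by 0.016 (permutation p = 0.584), so the change within the Lamp pair was not detected on that scale.

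**Figure D3:**
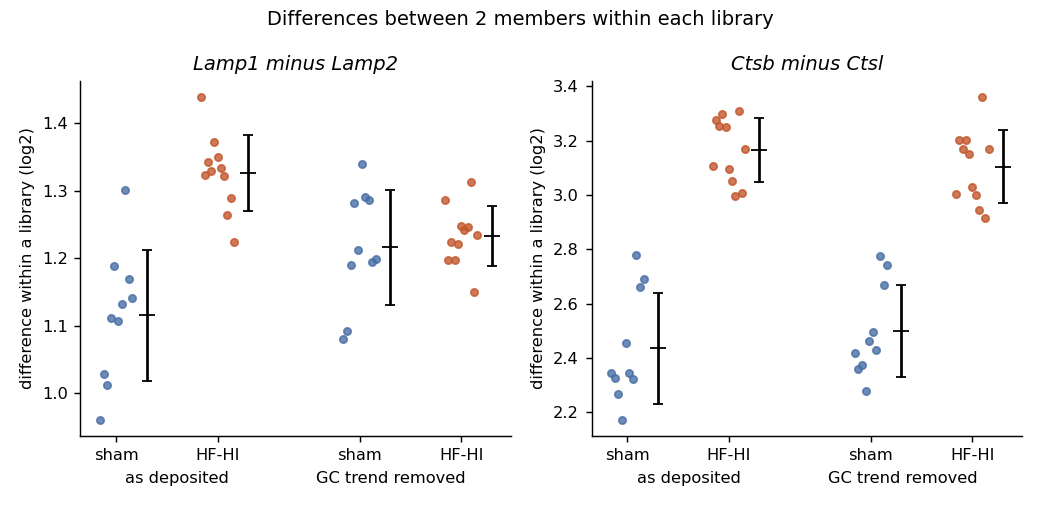
Log2 value of 1 member minus that of another within each library (y axis), for Lamp1 minus Lamp2 and Ctsb minus Ctsl, in sham and HF-HI, from values as deposited and with the GC trend removed. Points are libraries and bars the mean ± SD, and Ctsb minus Ctsl separates the groups on both scales while Lamp1 minus Lamp2 does so on neither.

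Within groups the members did not vary as a single set. Correlations were computed on deviations from the group mean over 21 libraries, as a description without a test, since all genes of a library share its depth and base composition. Ctsb and Psap had the highest Pearson r, 0.74, with 0.78 within sham, 0.78 within HF-HI and 0.58 with the GC trend removed. Ctsb and Lamp1 had an r of 0.50, with 0.60 within sham and 0.19 within HF-HI. Lamp1 and Lamp2 had an r of 0.31, with 0.064 within sham and 0.61 within HF-HI. Ctsb and Lamp2 had an r of -0.14, which became 0.57 with the GC trend removed. Lamp2 and Psap had an r of -0.58, which became 0.082 with the GC trend removed. The highest r of Ctsd with another member was 0.27, with Ctsl, and Ctsb with Ctsl also reached 0.27.

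**Figure D4:**
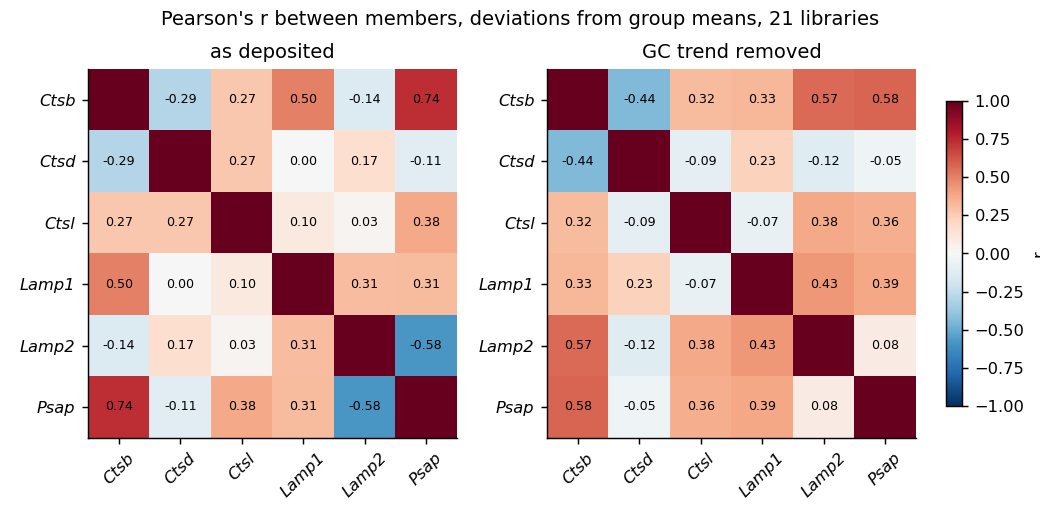
Pearson's r between members over 21 libraries, computed on deviations from the group means (color, scale -1 to 1), from values as deposited and with the GC trend removed. Ctsb with Psap is positive on both scales, and the negative r of Lamp2 with Psap (-0.58) is near 0 on the second.

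The 3 genes of the table most like each member by the same measure differed between members. For Ctsb they were Add1 (r = 0.92), which encodes the cytoskeletal protein adducin, Med24 (0.92), a subunit of the Mediator complex, and Pcdh7 (0.87), a protocadherin. Psap was closest to B3gat3 (0.91), Gpi1 (0.90), the glycolytic glucose-6-phosphate isomerase, and Eef2 (0.89), the translation elongation factor. Lamp1 was closest to Trnp1 (0.86), Kpnb1 (0.83) and Ppp2cb (0.75), and Ctsl to Ncoa4 (0.80), the ferritin cargo receptor of autophagy, Anxa6 (0.74) and Clcn4 (0.74). Lamp2 was closest to Jak2 (0.82), Tnks2 (0.81) and Ano3 (0.80), and its r with Jak2 was 0.39 with the GC trend removed. Ctsd had the weakest nearest genes, Pkig (0.70), Ap2m1 (0.70), a clathrin adaptor subunit, and Ensa (0.68). No gene appeared among the nearest 3 of more than 1 member.

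The rest of the lysosomal system was described from 9 lists holding 216 genes, of which 123 were measured. Of these 46 were higher, 40 lower and 37 not called, with a median difference of -0.012, against 32.6% higher and 33.6% lower among all genes. With the GC trend removed, 32 were higher and 44 lower. CACGTG was present in the promoter windows of 20 of 94 listed genes with an entry (21.3%), against 11.1% of the 4329 genes of the table with an entry. By call, it was present in 17.9% of 39 higher, 30% of 30 lower and 16% of 25 uncalled listed genes.

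Among the other hydrolases, direction varied within each class. Of 4 genes measured from the list of other proteases, which also holds the thioesterase Ppt1, 3 were lower and 1 higher. Ctss, the cathepsin abundant in microglia, fell by 0.30 (limma adjusted p 1.77e-04). Ppt1, the palmitoyl thioesterase of infantile neuronal ceroid lipofuscinosis, fell by 0.16 (2.20e-05). Ctsa, the protective protein of beta-galactosidase and neuraminidase, was 0.10 higher (0.0358), was -0.067 with the GC trend removed, and missed the threshold in 14 of 21 fits that each left out 1 library. Of 4 other glycosidases, 2 rose and 2 fell. Gaa, the acid alpha-glucosidase that degrades glycogen, rose by 0.61 (5.42e-06) and Gba2, a glucosylceramidase that is not lysosomal in location, by 0.29 (1.02e-06), or 0.35 and 0.13 with the GC trend removed (1.09e-04 and 0.0337). Neu1, the lysosomal sialidase, fell by 0.13 (0.00668), and its difference was -0.25 with the GC trend removed (8.25e-06).

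Lipases, sulfatases, phosphatases and nucleases had 8 measured genes, of which 3 were higher, 2 lower and 3 not called. Pld3, an endolysosomal exonuclease, rose by 0.46 (limma adjusted p 5.47e-07) and Arsb, the arylsulfatase B of dermatan sulfate breakdown, by 0.42 (5.82e-07), and with the GC trend removed Pld3 was 0.21 higher (9.48e-04). Sgpp1, a sphingosine-1-phosphate phosphatase that is not lysosomal in location, fell by 0.22 (0.00116). Asah1, the acid ceramidase that acts with a saposin from Psap, fell by 0.13 (0.00695), and was -0.032 with the GC trend removed (0.402). Of 2 measured activators and soluble cofactors, Epdr1 fell by 0.24 (3.74e-05) and the other was not called. Psap thus differed in sign from Asah1.

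Other lysosomal membrane proteins were the list with the most genes higher, 14 of 22, with 4 lower and a median of 0.15. Arl8a, a small GTPase that couples lysosomes to kinesin, rose by 0.83 (limma adjusted p 5.40e-10) without overlap, and Lamp5, a LAMP family member found mainly in neurons, rose by 0.40 (0.00114). Tmem106b, a lysosomal membrane protein linked to frontotemporal dementia, fell by 0.27 (1.03e-05) and Ostm1, the partner of the ClC-7 chloride transporter, by 0.22 (1.32e-05). Tmem106b differed by -0.13 (3.64e-04) with the GC trend removed, when this list had 8 genes higher and 5 lower, so its excess of higher genes was smaller on that scale.

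The V-ATPase had 17 measured subunits, with 5 higher, 10 lower and a median of -0.16. Atp6v0c, the proteolipid of the membrane ring, was 1.51 higher (limma adjusted p 8.76e-09) with an SD of 0.51 in sham. GENCODE annotates 2 pseudogenes of Atp6v0c, and how reads were divided among them was not tested. Atp6v1g2, the neuronal G subunit, was 0.78 higher (3.29e-07). Atp6v1h fell by 0.34 (2.72e-06) and Atp6v1e1 by 0.30 (3.06e-06). With the GC trend removed Atp6v1h differed by -0.22 (6.19e-04), and 4 subunits were higher and 9 lower.

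Sorting and trafficking genes were divided, with 10 of 28 higher and 8 lower, or 6 and 10 with the GC trend removed. The 3 receptors that deliver hydrolases such as the cathepsins showed small differences. The cation-dependent mannose 6-phosphate receptor M6pr fell by 0.12 (limma adjusted p 0.00544; 0.0644 with the GC trend removed). Igf2r, the cation-independent receptor, differed by -0.071 (0.0288), a call missed without sham replicate 4 or 9 or HF-HI replicate 2 or 10, and by -0.15 with the GC trend removed (4.44e-05). Sort1, which encodes sortilin, differed by -0.0056 (0.876), or by -0.069 with the GC trend removed (0.0422). Rab7, the GTPase of late endosomes, rose by 1.00 (5.89e-10) without overlap and Gga3, an adaptor of the trans-Golgi network, by 0.40 (7.86e-06; 0.26 with the GC trend removed), while Vps41 fell by 0.27 (2.18e-07) and Vps26a by 0.21 (1.19e-04).

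Regulators of lysosomal biogenesis had 14 measured genes, of which 3 were higher, 3 lower and 8 not called. Tfeb, Tfe3 and Mitf were not analysed here. Ywhag, a 14-3-3 protein of the family that retains TFEB in the cytosol, rose by 0.50 (limma adjusted p 1.43e-07) and Rptor, the scaffold of mTORC1, by 0.23 (3.59e-05), the latter being 0.11 with the GC trend removed (0.00737). Lamtor1, the Ragulator anchor, fell by 0.26 (1.24e-05) and Rragb, a Rag GTPase, by 0.16 (0.0115), where Rragb was -0.10 and not called with the GC trend removed (0.0699). Autophagosome genes gave 8 of 24 higher and 7 lower, or 5 and 9 with the GC trend removed. Atg2a and Atg9a, which supply lipid to the growing autophagosome, rose by 0.55 (7.49e-09) and 0.45 (2.10e-06), and Rb1cc1 and Ulk2, of the initiating kinase complex, fell by 0.25 (1.02e-04) and 0.20 (1.46e-05). After GC trend removal Atg2a was 0.30 higher (5.82e-07), Atg9a 0.28 higher (1.13e-05) and Rb1cc1 differed by -0.096 (0.00852).

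**Figure D5:**
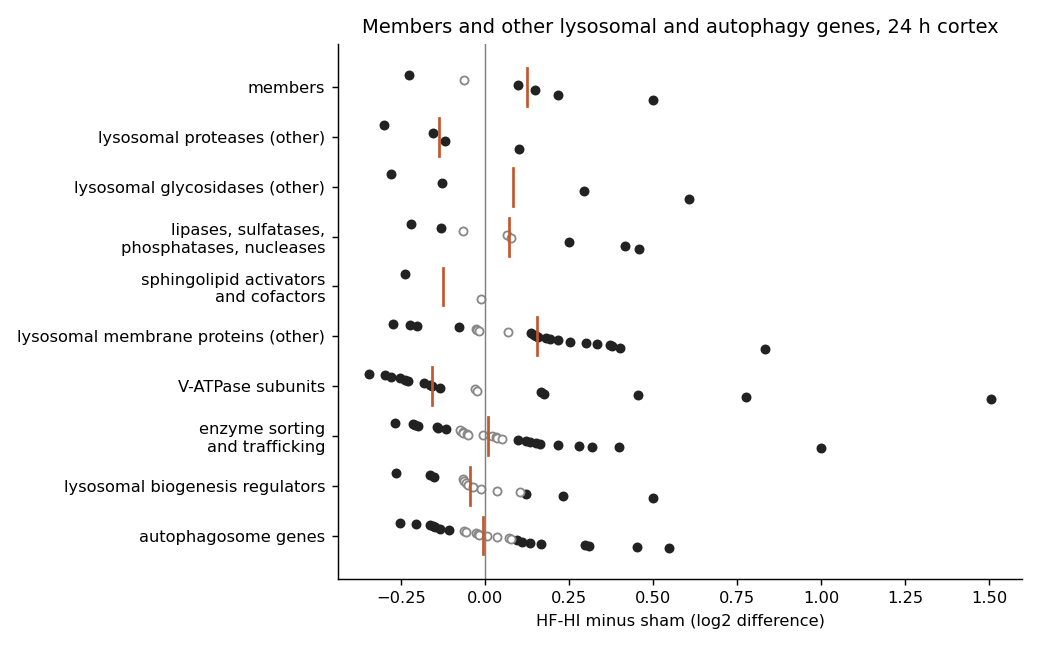
HF-HI minus sham difference (x axis, log2) of each measured gene of the members and of 9 lists of lysosomal and autophagy genes (y axis), with filled points for genes past the limma threshold of 0.05, open points for the others and a vertical line at each list's median. Genes lie on both sides of 0 in most lists, and the members span -0.23 to 0.50.

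Cell type markers were read beside the members, because in bulk tissue fewer cells of a type and less RNA per cell cannot be told apart. Of the defining markers of cortical projection neurons, Slc17a7 lay at 12.10 to 12.55 in sham and 13.11 to 13.42 in HF-HI, and Camk2a at 13.52 to 13.92 and 13.90 to 14.26. Library medians over all genes lay between 9.68 and 9.76, so both were above the median gene in every library. Cortical neuron markers moved with the group: 8 of 10 measured were higher and none was lower, with a mean log2 value of 10.61 to 10.88 across sham libraries and 11.04 to 11.33 across HF-HI libraries. General neuron markers gave 9 of 13 higher and 0 lower, with mean values of 11.93 to 12.09 and 12.26 to 12.40. Astrocyte markers gave 6 of 14 higher and 3 lower (11.53 to 11.68 in sham, 11.61 to 11.74 in HF-HI), and oligodendrocyte markers 3 of 12 higher and 1 lower (10.47 to 11.20 and 10.51 to 11.09). Of 16 microglia markers 1 was measured, Csf1r, which was 0.13 higher (limma adjusted p 0.0184) and -0.0038 with the GC trend removed, so the microglial share behind Ctsb, Ctsl and Ctss could not be read from these values. Endothelial and mural markers gave 1 of 4 higher (8.99 to 9.26 and 9.09 to 9.28), and neither of 2 blood markers was called (8.28 to 9.37 and 8.28 to 10.21). On removal of the GC trend, cortical neuron markers gave 9 higher and 0 lower, neuron markers 7 and 1 (Eno2, -0.25, adjusted p 4.87e-06), astrocyte markers 5 and 6, oligodendrocyte markers 2 and 2, and endothelial and mural markers 1 and 1. The part of these marker differences in the member differences was not tested.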

How the data were processed

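Total RNA from cortex was made into stranded libraries after ribosomal RNA depletion and sequenced as paired reads. According to the study's methods, the authors aligned reads to mm10 with STAR, counted them per transcript with eXpress and normalized them with DESeq2 (versions not given in the sources used here). The deposited values are variance-stabilized log2 values for 5544 genes in 21 libraries, 1 per mouse. They are not counts, so the total reads per library are unknown and no count test was used. All columns matched a labelled sample (0 without one).

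HF-HI was compared with sham with limma (version 3.58.1, under R 4.3.3), using a two-sided moderated test with a mean-variance trend, Benjamini-Hochberg adjustment over all 5544 genes and a threshold of 0.05. Differences within a library between 2 members were tested by permutation of group labels (100000 resamples, two-sided, SciPy 1.17.1) for 2 of the 3 pairs planned, since Psap minus Grn was not run. Fold changes are 2 to the power of the log2 difference and understate the change of low genes. Symbols (5541 genes), positions, exon lengths and GC content (5539 genes) came from GENCODE mouse release 21 (GRCm38, the assembly of mm10), and promoter windows from RefSeq (GRCm38.p6).

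The GC trend was removed per library by a lowess fit with span 0.3 on exonic GC content. Relative depth was read from the spacing of the linear values between 500 and 600. Other alternatives were a threshold of 0.1, a minimum difference of 0.25, eBayes without trend, an exact Wilcoxon rank-sum test, centring on library medians, quantile normalization, leaving out the lowest 25% of genes by mean, a replicate block, relative depth as a covariate and leaving out each library. Genes named were all members, per lysosomal list up to 2 called genes in each direction with the largest differences, the 3 genes with the highest r per member, and a fixed set of hydrolase, receptor and regulator genes. Fdft1, the other genes that overlap members and the promoter motif were chosen after values were seen. The members and lists were chosen with earlier results of these data known. Some named genes that the rule selects are not reported here.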

Additional observations from a re-analysis of the deposited data

Results flagged for a closer look

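Among the 41 members and listed genes examined in the sham group, 1 had a library that stood apart from the others. Sgpp1, a sphingosine-1-phosphate phosphatase, was at 8.95 in sham replicate 5, while the other sham libraries lay between 9.19 and 9.47, and the gap was 0.472 of the group's range. By chance about 1 in 20 groups is expected to be singled out in this way. The fall of Sgpp1 in HF-HI ranged from -0.25 to -0.20 when single libraries were left out and was called each time. HF-HI groups of 11 were not tested in this way.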

How the results depend on the processing

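Ctsb and Ctsl kept their direction under every alternative run, between 0.43 and 0.53 and between -0.28 and -0.16. A minimum difference of 0.25 left 1 member called, 1 higher and 0 lower, and of the listed lysosomal genes called it left 34, with 24 higher and 10 lower in place of 46 and 40. The members called lower numbered 2 with an adjusted threshold of 0.1, with libraries centred on medians and with quantile normalization, and 1 to 2 when single libraries were left out, 2 being reached without HF-HI replicate 9 or 11. Removing the GC trend turned Ctsd to -0.075, Lamp2 to 0.072 and Ctsa to -0.067, and left Lamp1 minus Lamp2 at 0.016. With the replicate block added they were -0.074, 0.066 and -0.057, and 29 listed genes were called higher. Under the replicate block alone Ctsd was 0.11 but not called (limma adjusted p 0.0618), and Sort1 was 0.0037. Sort1 ran from -0.019 to 0.0040 when single libraries were left out, and was not called in any of those fits. With relative depth as a covariate Ctsd was 0.089 (adjusted p 0.0551), and Igf2r missed the threshold in 4 of 21 fits without 1 library and under the replicate block (adjusted p 0.086). On the deposited values the replicate block changed no other call among the members and named genes, and with the GC trend removed it ended the calls of Lamp2 (adjusted p 0.0658), Gba2 (0.0679) and Sort1 (0.125). The cause of these changes was not tested.

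The values did not show a pairing of libraries by replicate number, and the labels do not say whether the mice were paired. Over 10 pairs of the same number the r of deviations ran from -0.31 to 0.36 with a median of -0.14. It was above 0.1 in 4 pairs, and 0 sham libraries correlated best with their own number. At an unadjusted p under 0.05, 3843 genes passed. Without total counts, the precision of single values rests on the number of libraries, and differences such as that of Lamp2, whose interval includes 0, could not be resolved.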
